A study of Mus musculus with 14 samples.

Results

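Expression of 9 genes used to follow infiltrating and scavenging macrophages was examined in the brain hemispheres of mice after experimental stroke. The genes were Lgals3, Lgals1, Msr1, Cd5l, Cd68, Cd36, Arg1, Chil3 and Ly6c2, taken by symbol from a deposited table of 46904 genes, and each of the 9 had a single row in it. Cerebral ischemia had been induced by a mild occlusion of the middle cerebral artery (MCAO) lasting 20 min in male mice aged 12 weeks, and bulk mRNA of the contralateral (CL) and the ischemic hemisphere (MCAO) was sequenced 48 h later. The 4 groups comprised 3 CL and 3 MCAO libraries of wild-type mice (Cort+/+) and 3 CL and 5 MCAO libraries of mice lacking the neuropeptide cortistatin (Cort-/-), all on the C57BL/6J background. No cortistatin treatment is named for these libraries. The methods state isoflurane anaesthesia and the analgesic meloxicam for the surgery. The Cort-/- animals lack cortistatin in every tissue, the macrophages included, and the CL hemisphere comes from animals that had a stroke, so it is not the brain of an unoperated mouse.

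Macrophages in an ischemic brain have more than 1 origin. Resident microglia are activated in place, macrophages at the brain borders can move inwards, and monocytes enter from the blood and mature into phagocytes that clear dead cells and myelin lipid. Ly6c2 marks the classical blood monocyte, and Arg1 (arginase 1) and Chil3 (the chitinase-like protein Ym1) are products of alternatively activated or newly recruited macrophages. Msr1 and Cd36 are scavenger receptors of lipid and debris, Cd5l is a secreted scavenger protein of tissue macrophages, and Cd68 is a lysosomal membrane glycoprotein of phagocytes. Lgals3 and Lgals1 encode galectins, lectins that bind beta-galactoside sugars, and both are also made by reactive glia and vessel wall cells. In bulk tissue, fewer cells of a type and less RNA per cell cannot be told apart.

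The members lie on 7 chromosomes, and positions are those of GRCm39. Lgals3 is on chromosome 14 (47605208 to 47623624, plus strand), Lgals1 on chromosome 15 (78810875 to 78814670, plus strand) and Msr1 on chromosome 8 (40034726 to 40095714, minus strand). Cd5l is on chromosome 3 (87265182 to 87278380, plus strand) and Cd68 on chromosome 11 (69555037 to 69557067, minus strand). Cd36 is on chromosome 5 (17986432 to 18094067, minus strand) and Arg1 on chromosome 10 (24791118 to 24803817, minus strand). Chil3 is on chromosome 3 (106054870 to 106074880, minus strand) and Ly6c2 on chromosome 15 (74980003 to 74988467, minus strand). All are annotated as protein-coding genes.

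Promoter sequence was available from RefSeq (build GRCm38.p6) for 6 of the 9 members, and no entry was found for Lgals1, Msr1 and Arg1. The 250 bases before the transcription start are shown for the 4 of these genes that rose after MCAO over both genotypes in the results that follow. Capitals mark matches, on either strand, to GAGGAA, a core of the sites of the myeloid factor PU.1, or to TGANTCA, the AP-1 site.
Lgals3 (chr14:47373610-47373859, plus strand): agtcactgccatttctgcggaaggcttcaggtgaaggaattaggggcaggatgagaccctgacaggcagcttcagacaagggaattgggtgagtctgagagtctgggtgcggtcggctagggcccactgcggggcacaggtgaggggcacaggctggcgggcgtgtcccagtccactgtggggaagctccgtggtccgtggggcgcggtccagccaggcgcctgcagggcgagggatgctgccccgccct
Cd5l (chr3:87357631-87357880, plus strand): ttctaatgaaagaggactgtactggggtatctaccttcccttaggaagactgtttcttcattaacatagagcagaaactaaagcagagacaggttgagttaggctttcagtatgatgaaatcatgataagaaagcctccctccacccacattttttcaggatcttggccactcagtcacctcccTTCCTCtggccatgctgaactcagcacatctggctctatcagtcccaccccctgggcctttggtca
Cd68 (chr11:69666171-69666420, minus strand): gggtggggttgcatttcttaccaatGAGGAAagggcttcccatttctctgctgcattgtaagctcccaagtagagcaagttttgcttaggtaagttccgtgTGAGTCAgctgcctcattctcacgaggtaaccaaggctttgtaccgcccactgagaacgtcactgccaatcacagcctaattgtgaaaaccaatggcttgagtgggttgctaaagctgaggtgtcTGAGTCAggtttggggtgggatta
Cd36 (chr5:17835897-17836146, minus strand): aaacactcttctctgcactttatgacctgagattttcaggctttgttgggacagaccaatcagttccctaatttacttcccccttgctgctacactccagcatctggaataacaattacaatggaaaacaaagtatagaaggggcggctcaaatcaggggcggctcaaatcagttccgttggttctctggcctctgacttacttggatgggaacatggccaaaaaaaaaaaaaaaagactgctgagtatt
GAGGAA was found at 1 place in the Cd5l window and 1 in the Cd68 window, and TGANTCA at 2 places in the Cd68 window alone of these 4. The marked matches did not overlap each other. In the Lgals3 and Cd36 windows no match to either was found. Over all 32851 promoter windows of the same length, 23.3% hold GAGGAA and 6.75% hold TGANTCA. Of the 6 members with an entry, 3 held GAGGAA (Cd5l, Cd68 and Ly6c2) and 1 held TGANTCA. The E-box CACGTG and the letters TATAAA, present in 6.02% and 12.4% of all windows, were found in none of the 6. A match is a description of letters and not a measured binding site.

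Ly6c2 has a close relative, Ly6c1, which endothelial cells express, and the letters of both are needed to read its values. The first 120 coding bases are shown, with the bases at which they differ in capitals.
Ly6c2: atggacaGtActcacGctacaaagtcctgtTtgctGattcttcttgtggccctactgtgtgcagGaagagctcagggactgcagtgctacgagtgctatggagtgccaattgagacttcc
Ly6c1: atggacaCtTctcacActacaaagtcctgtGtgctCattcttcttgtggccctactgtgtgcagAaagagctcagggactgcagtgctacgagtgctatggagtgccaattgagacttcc
These 120 bases hold 6 of the 9 differences between the coding sequences of 393 bases each (97.7% identity), and the longest identical stretch has 188 bases. Of all 100-base windows of the Ly6c2 transcripts, 18.7% also occur in Ly6c1. A single read of 100 bases from these could be placed on either gene. The libraries were read as paired ends, and how many pairs had both reads in shared windows was not determined. Windows were also shared by Lgals1 with Gm30368 (6.73%), by Arg1 with Gm36172 (9.91%) and by Chil3 with Chil4 and Gm6522 (3.80%). For Cd36 the share was 0.0797%, and for Lgals3, Msr1, Cd5l and Cd68 it was 0. Single reads from shared windows cannot be assigned with certainty, which concerns Ly6c2 most, then Arg1, Lgals1 and Chil3, and Cd36 least.

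The deposited values are RPKM, in which reads are divided by the length of the gene and by the depth of the library, which allow levels to be compared between genes. The libraries held 25991050 to 43034458 reads on genes, as recovered from the steps of the values. Cort had 64 to 139 reads in the Cort+/+ libraries and 0 to 4 in the Cort-/- libraries, which matches the labels. Neuronal markers were abundant in every group, with 8 genes summing to 1820 to 2440 RPKM. Along an axis of 15058 other genes that runs from the mean of the CL to the mean of the MCAO libraries, Cort+/+ MCAO replicate 4 scored 0.41 and Cort+/+ CL replicate 1 scored 0.39, so these 2 libraries lay next to each other. Cort-/- CL replicate 2 scored 0.31, the other 4 CL libraries -0.03 to 0.07 and the other 7 MCAO libraries 0.64 to 1.42. Results that rest on these libraries are given with and without them.

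Galectin, scavenger and lysosomal genes were higher in the ischemic hemisphere. Averaged over both genotypes, 6 of the 9 members rose after MCAO (Lgals3, Lgals1, Msr1, Cd5l, Cd68 and Cd36, limma adjusted p of 0.000444 to 0.0104), while 2.52% of the 46102 genes tested were called higher in the same contrast and 3.43% in either direction. At an unadjusted p under 0.05, 7 members were higher, against 8.02% of all genes. Every MCAO library of both genotypes lay above every CL library for these 6 genes, which held for 1.72% of all genes. Arg1, Chil3 and Ly6c2 overlapped between the hemispheres and did not pass (adjusted p of 0.198 to 0.589). Within Cort-/- mice 5 members passed, where 1.34% of all genes were called higher and 1.72% in either direction, and 7 had an unadjusted p under 0.05 (6.66% of all genes). Within Cort+/+ mice none passed in limma, where 0.00868% of all genes were called higher and 0.0108% in either direction. There 6 of the 9 had an unadjusted p under 0.05 (4.88% of all genes). With limma voom on the recovered reads 3 passed, where 0.124% of all genes were called in either direction. The 6 members that did not overlap compare with 5.73% of all genes whose MCAO libraries all lay above CL in Cort+/+ mice, and with 4.85% in Cort-/- mice. Without Cort+/+ CL replicate 1 and Cort-/- CL replicate 2 the counts were 6 over both genotypes, 5 within the Cort-/- and 1 within the Cort+/+ genotype, where 2.91%, 0.445% and 0.0954% of all genes were called in either direction. Whether the genotypes differ was tested separately, and no member passed that test.

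**Figure D1:**
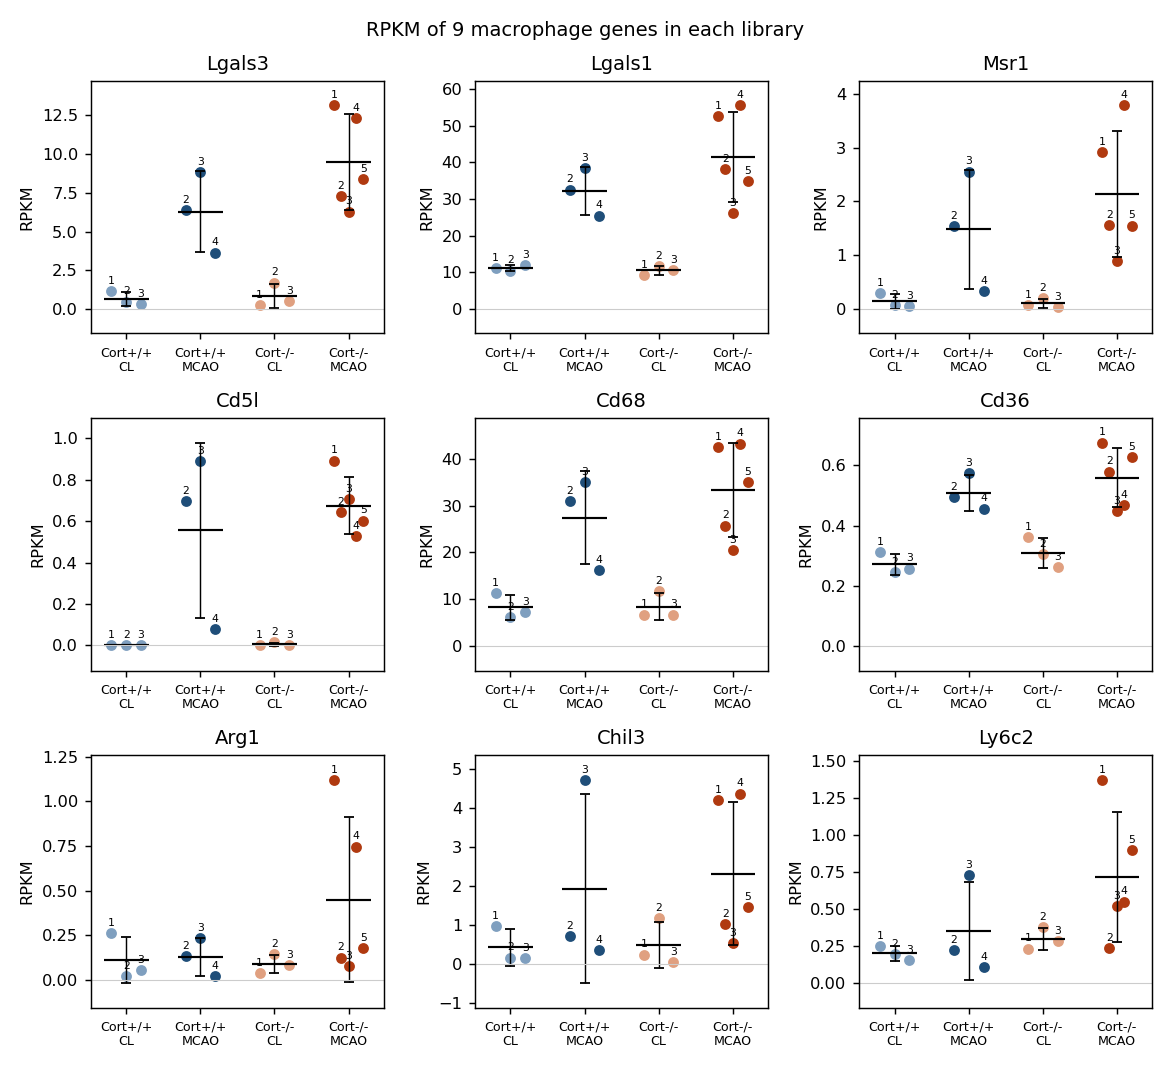
RPKM (y axis, linear, own scale in each panel) of the 9 genes in the 14 libraries, grouped by genotype and hemisphere on the x axis. Points are libraries with their replicate number, horizontal lines are group means and vertical bars are the SD. The MCAO points of Lgals3, Lgals1, Msr1, Cd5l, Cd68 and Cd36 all lie above the CL points, whereas Arg1, Chil3 and Ly6c2 overlap.

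Lgals3 had the largest log2 fold change of the 9 as fitted on log2(RPKM + 0.1). Its level in Cort+/+ mice was 1.18, 0.473 and 0.337 RPKM in CL replicates 1 to 3 and 6.40, 8.82 and 3.64 RPKM in MCAO replicates 2, 3 and 4. In Cort-/- mice it was 0.256, 1.70 and 0.525 RPKM in CL replicates 1 to 3 and 13.1, 7.30, 6.29, 12.3 and 8.37 RPKM in MCAO replicates 1 to 5. The lowest MCAO library, Cort+/+ replicate 4, still lay above the highest CL library, Cort-/- replicate 2. Group means rose from 0.828 ± 0.770 RPKM (SD, n = 3) to 9.48 ± 3.07 RPKM (SD, n = 5) in Cort-/- mice, a log2 fold change of 3.64 (SE 0.49, adjusted p = 0.00751). In Cort+/+ mice the means were 0.663 ± 0.452 RPKM (SD, n = 3) and 6.29 ± 2.59 RPKM (SD, n = 3), a log2 fold change of 3.13 (SE 0.55) that did not pass (limma adjusted p = 0.101). Without Cort+/+ MCAO replicate 4 the adjusted p was 0.0347.

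Lgals1 was the member with the tightest CL values and one of the most abundant. It stood at 11.2, 10.5 and 12.0 RPKM in the Cort+/+ CL libraries and at 32.5, 38.4 and 25.5 RPKM in the Cort+/+ MCAO libraries. The Cort-/- CL libraries held 9.32, 11.8 and 10.7 RPKM and the Cort-/- MCAO libraries 52.6, 38.2, 26.2, 55.5 and 34.9 RPKM. All CL libraries thus lay within a narrow range, while MCAO libraries were spread widely. Expression changed by a log2 fold of 1.91 in Cort-/- mice (SE 0.21, adjusted p = 0.00434) and 1.49 in Cort+/+ mice (SE 0.23, adjusted p = 0.0817). Lgals1 kept its call in Cort-/- mice in every alternative run except the replicate block.

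Among the other galectins, a list of 8 genes with Lgals3bp, a secreted ligand of galectin 3, had 2 genes called higher over both genotypes, against 2.52% of all genes. The median log2 fold change of this list was 0.35, while the median of all genes was 0.00. Lgals9, a galectin with a pair of sugar-binding domains, rose by 1.67 (adjusted p = 0.00553) and Lgals3bp by 1.47 (adjusted p = 0.0124). Lgals8 and Lgals4 had log2 fold changes of 0.22 and -0.33 and did not pass. The lists named here were chosen with earlier results of these libraries known.

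Msr1, the class A scavenger receptor, was close to absent in the CL hemisphere. Cort+/+ CL libraries held 0.303, 0.0722 and 0.0468 RPKM (44, 10 and 7 reads) and Cort+/+ MCAO libraries 1.54, 2.56 and 0.339 RPKM (222, 418 and 42 reads). Cort-/- CL libraries held 0.0796, 0.203 and 0.0308 RPKM (11, 27 and 4 reads) and Cort-/- MCAO libraries 2.91, 1.56, 0.897, 3.78 and 1.55 RPKM (508, 272, 95, 633 and 238 reads). Cort+/+ MCAO replicate 4 exceeded Cort+/+ CL replicate 1 only slightly, and the other MCAO libraries were well separated. The log2 fold change was 3.38 in Cort-/- mice (SE 0.59, adjusted p = 0.0169) and 2.52 in Cort+/+ mice (SE 0.65, adjusted p = 0.271). The Cort-/- call was lost without Cort-/- CL replicate 1 (adjusted p = 0.0786) or replicate 3 (adjusted p = 0.0829), and in Cort+/+ mice a call was reached without MCAO replicate 4 (adjusted p = 0.0429).

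Cd5l came nearest to an on-off pattern. No Cort+/+ CL library had a read of it, whereas the Cort+/+ MCAO libraries had 51, 74 and 5 reads (0.696, 0.890 and 0.0793 RPKM). In Cort-/- mice the CL libraries had 0, 1 and 0 reads and the MCAO libraries 79, 57, 38, 45 and 47 reads (0.892, 0.644, 0.706, 0.529 and 0.602 RPKM). The 5 Cort-/- MCAO libraries were close to each other, and Cort+/+ MCAO replicate 4 was the single MCAO library with few reads. In Cort+/+ mice the level pooled over the MCAO libraries was 43.5 times a floor of 3 reads over the CL group (0.0136 RPKM), the limit that a count of 0 allows. This floor covers counting error in CL only, not the spread between libraries. MCAO replicate 4 alone, at 0.0793 RPKM, lay far nearer to the floor. In Cort-/- mice, 266 reads against 1 gave a ratio of 138 (95% interval 24.5 to 5456, exact and for counting error only). The fitted log2 fold change of 2.87 in Cort-/- mice (SE 0.43, adjusted p = 0.00904) is held down by the pseudocount of 0.1 RPKM. In Cort+/+ mice it was 2.38 (SE 0.48, adjusted p = 0.150), and 3.15 (adjusted p = 0.000111) without MCAO replicate 4.

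Cd68, the lysosomal glycoprotein, was present in every library and had the highest CL level after Lgals1. It stood at 11.4, 6.26 and 7.31 RPKM in Cort+/+ CL, at 30.9, 35.1 and 16.3 RPKM in Cort+/+ MCAO and at 6.76, 11.7 and 6.73 RPKM in Cort-/- CL libraries. The Cort-/- MCAO libraries held 42.5, 25.8, 20.6, 43.2 and 35.0 RPKM. The same 2 CL libraries were high as for Lgals3, namely Cort+/+ replicate 1 and Cort-/- replicate 2. Fitted log2 fold changes were 1.97 in Cort-/- mice (SE 0.31, adjusted p = 0.0126) and 1.68 in Cort+/+ mice (SE 0.35, adjusted p = 0.171). The Cort-/- call was lost without CL replicate 1 (adjusted p = 0.0681) or replicate 3 (adjusted p = 0.0665), and Cort+/+ mice reached it without MCAO replicate 4 (adjusted p = 0.0332).

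Cd36, a receptor of oxidised lipid and long-chain fatty acids that endothelium and platelets also carry, changed least among the 6. Cort+/+ libraries held 0.312, 0.245 and 0.258 RPKM in CL and 0.495, 0.575 and 0.457 RPKM in MCAO hemispheres. Cort-/- libraries held 0.361, 0.306 and 0.262 RPKM in CL and 0.676, 0.579, 0.449, 0.467 and 0.627 RPKM in MCAO hemispheres. The groups did not overlap, and Cort-/- CL replicate 1 was the highest CL library. Over both genotypes Cd36 rose by a log2 fold change of 0.70 (SE 0.13, adjusted p = 0.0104), with 0.71 in Cort+/+ (adjusted p = 0.284) and 0.68 in Cort-/- mice (adjusted p = 0.0726). With limma voom on the recovered reads Cd36 passed in Cort-/- mice (adjusted p = 0.0278).

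**Figure D2:**
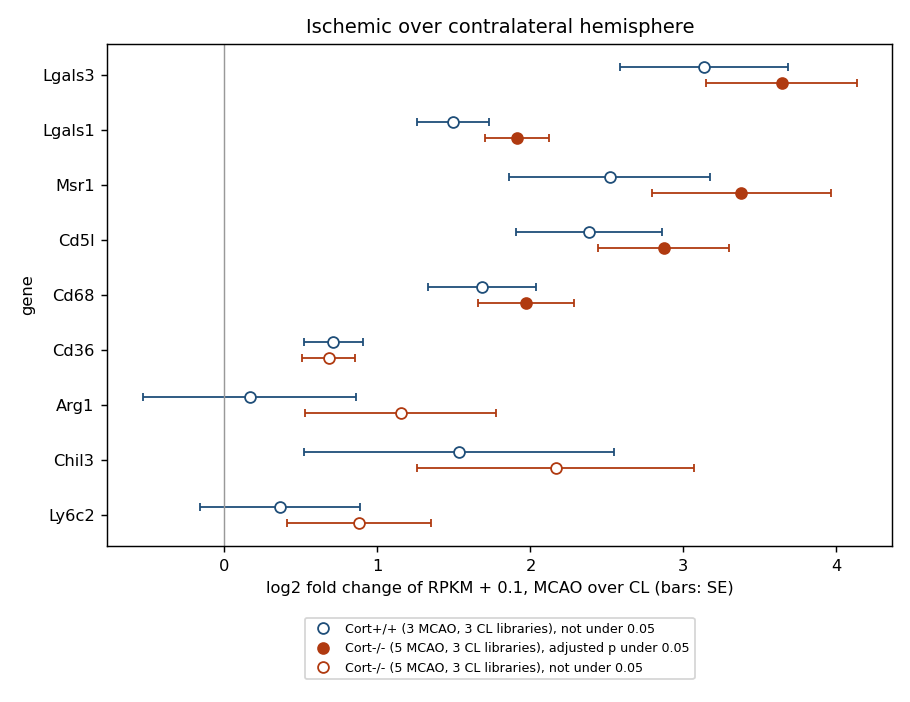
Log2 fold change of RPKM + 0.1 between MCAO and CL hemispheres (x axis) for the 9 genes (y axis), with SE bars from limma, in Cort+/+ and in Cort-/- mice. Filled points have an adjusted p under 0.05. The filled points are Lgals3, Lgals1, Msr1, Cd5l and Cd68 in Cort-/- mice, from 1.91 to 3.64, and no point is filled in Cort+/+ mice.

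Genes of the same functions were read from further lists. Of 21 other scavenger and efferocytosis receptors, 5 rose over both genotypes (23.8%), with a median log2 fold change of 0.17 for the list. In this contrast 2.52% of all genes were called higher. Among genes averaging 0.5 RPKM or more, 12.5% were called in either direction. Cxcl16, a membrane chemokine that also binds oxidised lipoprotein, rose by 2.00 (adjusted p = 0.000444), Cd14, a coreceptor of lipopolysaccharide, by 1.54 (adjusted p = 0.00755) and Stab1, a clearance receptor, by 1.14 (adjusted p = 0.00949). Mertk, a receptor for apoptotic cells, had a log2 fold change of -0.12 and did not pass. Marco, a class A receptor like Msr1, had no read in 7 of the 14 libraries.

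Of 15 phagolysosomal and lipid-loading genes, 9 rose over both genotypes, against 2.52% of all genes called higher, and the median log2 fold change was 0.44. Spp1 (osteopontin) rose by 2.99 (adjusted p = 0.00194), Plin2, a lipid droplet coat protein, by 1.67 (adjusted p = 0.00199), Gpnmb, a lysosomal glycoprotein, by 1.60 (adjusted p = 0.00386) and Trem2, a lipid-sensing receptor, by 1.199 (adjusted p = 0.00144). On the same scale Lgals3 rose by 3.39, Msr1 by 2.95 and Cd5l by 2.63.

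Arg1 was low and uneven. Cort+/+ libraries held 14, 1 and 3 reads in CL (0.261, 0.0196 and 0.0544 RPKM) and 7, 14 and 1 reads in MCAO hemispheres (0.132, 0.232 and 0.0219 RPKM). Cort-/- libraries held 2, 7 and 4 reads in CL (0.0393, 0.143 and 0.0836 RPKM) and 72, 8, 3, 46 and 10 reads in MCAO hemispheres (1.12, 0.125, 0.0769, 0.746 and 0.177 RPKM). Cort-/- MCAO replicates 1 and 4 were high, and the other 6 MCAO libraries lay within the range of the CL libraries. The log2 fold change was 1.15 in Cort-/- (SE 0.62, adjusted p = 0.494) and 0.16 in Cort+/+ mice (SE 0.70, adjusted p = 1), and the latter turned to -0.16 without CL replicate 2 or without MCAO replicate 3.

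Of 8 other genes of arginine metabolism, 2 rose over both genotypes, against 2.52% of all genes called higher. Odc1, the enzyme that opens polyamine synthesis, rose by 0.40 (adjusted p = 0.0119) and Oat, ornithine aminotransferase, by 0.16 (adjusted p = 0.0232). Arg2, the mitochondrial arginase, had a log2 fold change of -0.34 and did not pass (adjusted p = 0.153). It was more abundant than Arg1 in every group, with means of 1.14 to 1.63 RPKM.

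Chil3 was high in 3 MCAO libraries. Cort+/+ libraries held 0.985, 0.169 and 0.157 RPKM in CL and 0.723, 4.73 and 0.357 RPKM in MCAO hemispheres. Cort-/- libraries held 0.245, 1.17 and 0.0602 RPKM in CL and 4.21, 1.03, 0.541, 4.37 and 1.46 RPKM in MCAO hemispheres. Cort+/+ MCAO replicate 3 and Cort-/- MCAO replicates 1 and 4 stood well above the rest, and Cort-/- CL replicate 2 exceeded 4 of the 8 MCAO libraries. Fitted log2 fold changes of Chil3 were 2.17 in Cort-/- (SE 0.91, adjusted p = 0.320) and 1.53 in Cort+/+ mice (SE 1.01, adjusted p = 0.843). Chil4, its neighbour and relative, had no read in 10 of the 14 libraries and a mean of at most 0.00628 RPKM in any group.

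Ly6c2 had 3 to 52 reads per library. Cort+/+ libraries held 0.254, 0.1999 and 0.154 RPKM in CL and 0.224, 0.734 and 0.112 RPKM in MCAO hemispheres. Cort-/- libraries held 0.234, 0.381 and 0.285 RPKM in CL and 1.38, 0.239, 0.523, 0.552 and 0.902 RPKM in MCAO hemispheres. In Cort-/- MCAO hemispheres, 4 of 5 libraries lay above all Cort-/- CL libraries, and replicate 2 did not. The log2 fold change was 0.88 in Cort-/- (SE 0.47, adjusted p = 0.483) and 0.36 in Cort+/+ mice (SE 0.52, adjusted p = 0.923), and the latter turned to -0.20 without MCAO replicate 3. Ly6c1 was far more abundant, at means of 13.7 to 15.7 RPKM in the 4 groups, with a log2 fold change of 0.12 over both genotypes (adjusted p = 0.600). Whether Ly6c1 reads were placed on Ly6c2 was not tested.

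Of 11 Ly6 and chitinase-like paralogs none passed in any contrast of the hemispheres. Chi3l1, another chitinase-like protein, had the largest log2 fold change, 0.78 (adjusted p = 0.0552). Of 12 genes of alternative activation, 3 rose over both genotypes, against 2.52% of all genes called higher. The median log2 fold change of this list was 0.17, with 10 of the 12 above 0. Among the 3 were Tgfb1 by 1.04 (adjusted p = 0.00409) and Stat6, the factor downstream of interleukin 4, by 0.40 (adjusted p = 0.0152). Ccl17 had a log2 fold change of 0.02 and did not pass (adjusted p = 0.992). Il4ra, the receptor subunit for the same cytokine, had a log2 fold change of 0.77 and did not pass (adjusted p = 0.0822).

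**Figure D3:**
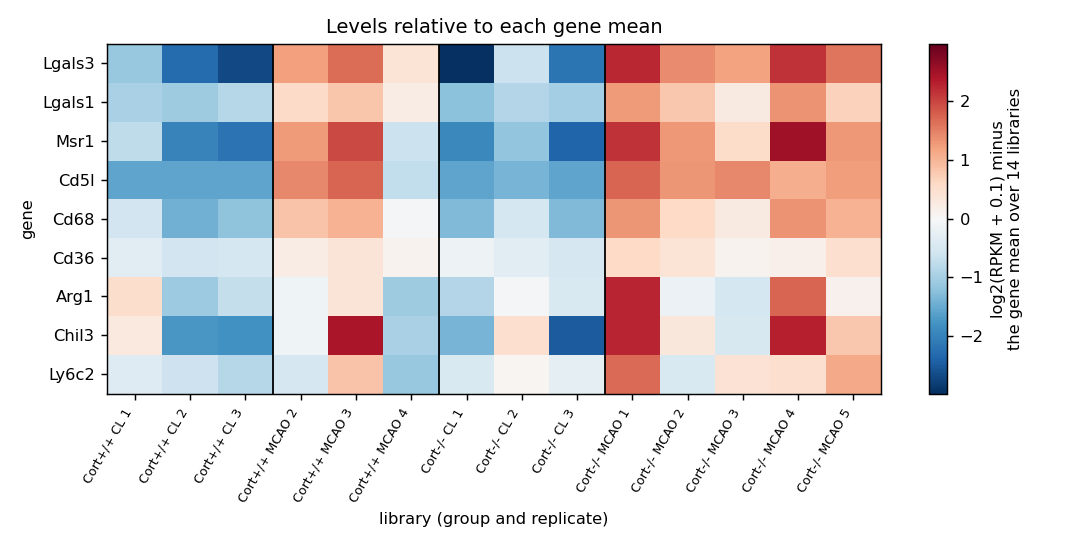
Level of each gene (rows) in each library (columns) as log2(RPKM + 0.1) minus the mean of the gene over the 14 libraries, shown as colour, with black lines between the 4 groups. Cort-/- MCAO replicates 1 and 4 and Cort+/+ MCAO replicate 3 are high for most genes, and Cort+/+ MCAO replicate 4 is low for all 9 within its group.

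The libraries kept much the same order for most members, with Cd5l as an exception. Cort+/+ MCAO replicate 3 was the highest and replicate 4 the lowest of its group for all 9 members. In Cort-/- MCAO hemispheres the highest value was in replicate 1 for 5 members and in replicate 4 for the other 4, and replicate 3 was the lowest for 7. For Cd5l, replicate 4 was the lowest of that group. In Cort-/- CL hemispheres replicate 2 was the highest for 8 members.

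Over the 8 MCAO libraries, Pearson correlations of log2(RPKM + 0.1) were 0.48 to 0.95 (median 0.90, 10 pairs) among Lgals3, Lgals1, Msr1, Cd5l and Cd68. They were 0.73 to 0.86 (3 pairs) among Arg1, Chil3 and Ly6c2, and 0.51 to 0.94 (median 0.86, 15 pairs) between both sets. Cd36 correlated at 0.47 to 0.66 with the other 8. The members whose hemispheres overlapped therefore followed the others across the ischemic libraries, as a description over 8 points that share library, depth and hemisphere and mix both genotypes. By rank, Cd5l followed less closely, with Spearman correlations of 0.29 to 0.40 with Lgals3, Lgals1, Msr1 and Cd68.

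Likeness to other genes was ranked among genes averaging 1 RPKM or more, for the members that averaged 0.5 RPKM or more. Over the 14 libraries the genes nearest to Cd68 were Ptpn6, C3ar1 and Cd180 (Pearson r of 0.99 each), a phosphatase of blood cells, the complement C3a receptor and a receptor of the Toll-like type. Nearest to Msr1 were Tgfbr2, Dock2 and C1qb (r of 0.99 each), and nearest to Lgals3 were Tuba1c, Flnc and Tgm1 (r of 0.99 each). Nearest to Lgals1 were Cxcl16 (r of 0.99), Clcf1 and Clic1 (r of 0.98 each). For Chil3 they were Serpina3n, Srgn and Slc39a1 (r of 0.96 each). Over the 8 MCAO libraries alone the nearest genes were other ones, such as Iqgap1 for Lgals3, Nme2 for Lgals1 and Mcm3 for Cd68 (r of 0.990, 0.991 and 0.996).

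Members were next set against genes shared by microglia and macrophages. A list of 10 pan-myeloid genes was used (Aif1, Itgam, Spi1, Tyrobp, Fcer1g, Ctss, Laptm5, Csf1r, Ptprc and Adgre1). It passed in full in Cort-/- mice, where 1.34% of all genes were called higher. In Cort+/+ mice 0 of the 10 passed, where 0.00868% of all genes were called higher. The mean of its log2 levels was higher after MCAO by 1.203 in Cort-/- and 0.99 in Cort+/+ mice. The difference between a member and that mean was taken in each library and compared between hemispheres without a test. With the pseudocount of 0.1 RPKM, Lgals3 gained most on the list, by 2.44 in Cort-/- and 2.14 in Cort+/+ mice. Msr1 gained 2.18 and 1.52, Cd5l 1.67 and 1.39, Cd68 0.77 and 0.69, and Lgals1 0.71 and 0.50, in the same order of genotypes. The hemispheres did not overlap in this difference for these 5 genes in either genotype, except Msr1 in Cort+/+ mice. The gain of Cd5l is set by the pseudocount, as it had at most 1 read in any CL library, so its rank is not known. With a pseudocount of 0.01 RPKM the fitted Cort+/+ log2 fold change was 5.26 for Cd5l and 3.34 for Lgals3.

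Cd36, Arg1, Chil3 and Ly6c2 did not gain in the same way. The difference of Cd36 changed by -0.52 in Cort-/- and -0.28 in Cort+/+ mice, and that of Ly6c2 by -0.32 and -0.63. For Arg1 it changed by -0.05 and -0.83, and for Chil3 by 0.96 and 0.54, with overlap in both genotypes. Several of the gains depended on the constant added before taking logarithms. With a pseudocount of 1 RPKM in place of 0.1, the change of Lgals3 was 1.53 in Cort-/- and 1.27 in Cort+/+ mice, and that of Msr1 only 0.41 and 0.18. The change of Cd5l, which had at most 1 read in any CL library, turned to -0.29 and -0.23. That of Chil3 was 0.022 and -0.059, in the same order of genotypes. Lgals1 changed by 0.80 and 0.59 and Cd68 by 0.84 and 0.75 with this pseudocount.

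**Figure D4:**
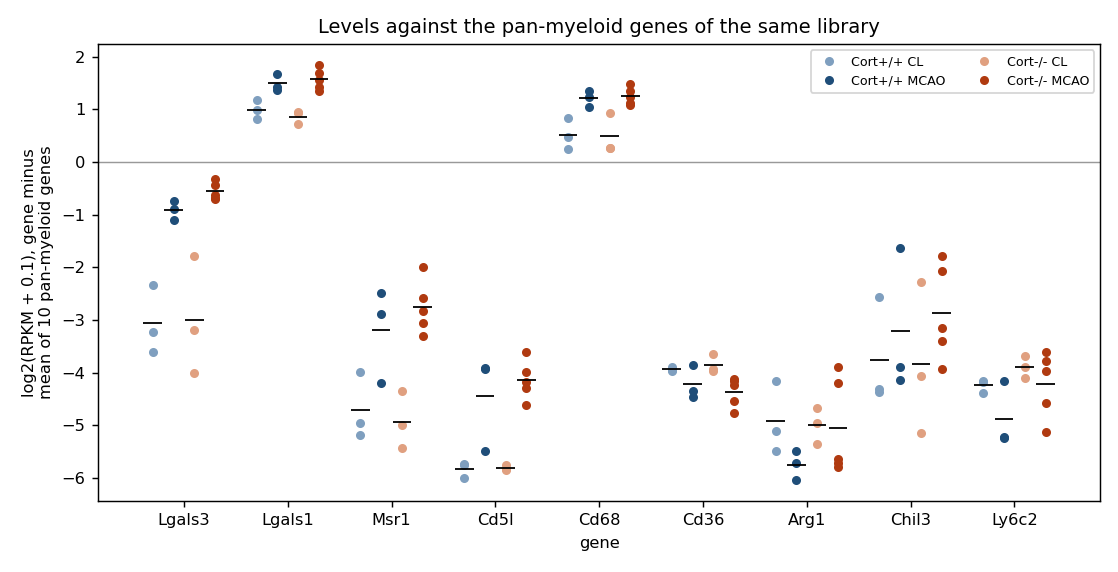
Difference between log2(RPKM + 0.1) of each gene and the mean of 10 pan-myeloid genes in the same library (y axis), for the 9 genes (x axis) and 4 groups. Points are libraries and lines are group means. MCAO points of Lgals3, Lgals1, Cd5l and Cd68 lie above the CL points of their genotype, whereas those of Arg1, Chil3 and Ly6c2 overlap with them.

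Markers of the cells that could carry these genes were counted in the same fit, where 2.52% of all genes were called higher over both genotypes. Homeostatic microglial genes rose in 7 of 9 cases over both genotypes, with summed levels of 101 to 117 RPKM in CL and 134 to 227 RPKM in MCAO libraries. Of 14 monocyte genes 6 rose, among them S100a4 by 2.18 (adjusted p = 0.00386), the hyaluronan receptor Cd44 by 1.75 (adjusted p = 0.00143) and the lysozyme gene Lyz2 by 1.45 (adjusted p = 0.0271). Ms4a6c had a log2 fold change of 1.83 and did not pass (adjusted p = 0.0891). The monocyte sum was 20.1 to 35.9 RPKM in CL and 34.1 to 97.8 RPKM in MCAO libraries, and it was highest in Cort-/- MCAO replicates 1 (97.8) and 4 (77.2), the libraries that were highest for Arg1. Only Ms4a4c and F10 of this list were at 0 in any library, each in 1.

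Of 13 neutrophil genes 1 rose (Csf3r, the receptor of granulocyte colony-stimulating factor, by 0.52, adjusted p = 0.00475), and the sum was 5.60 to 13.04 RPKM in CL and 6.54 to 20.3 RPKM in MCAO libraries, with the highest values in Cort-/- MCAO replicates 4 (20.3) and 1 (13.7). The neutrophil marker Ly6g was at 0 in 7 of the 14 libraries and Elane in 9. Of 10 border macrophage genes 1 rose (Siglec1, by 1.77, adjusted p = 0.0253, named although its mean is under 1 RPKM), and the sum was 2.48 to 5.60 RPKM in CL and 3.32 to 13.7 RPKM in MCAO libraries, with the highest value in Cort-/- MCAO replicate 1. None of this list was at 0. The single calls of both lists compare with 2.52% of all genes called higher. Among genes averaging 0.5 RPKM or more, 12.5% were called in either direction, so these calls are not read as a rise of either list. The part of these cells in the levels of the 9 genes was not tested.

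Astrocyte genes rose in 4 of 8 cases over both genotypes, among them the intermediate filament genes Vim by 2.15 (adjusted p = 0.00144) and Gfap by 1.84 (adjusted p = 0.00842). Slc1a2 and Slc1a3 had log2 fold changes of -0.17 and -0.09 and did not pass, and 6 of the 8 lay above 0. The part of astrocytes in the galectin levels was not tested. Endothelial genes rose in 2 of 10 cases and fibroblast and meningeal genes in 1 of 8. Of all genes 2.52% were called higher in this contrast, and 12.5% of those averaging 0.5 RPKM or more were called in either direction. Of 10 lymphocyte genes none rose and 1 fell (Cd4, by 1.38, adjusted p = 0.00763), and Cd3d was at 0 in 9 libraries. Cd4 averaged 4.09 RPKM in Cort+/+ and 3.59 RPKM in Cort-/- CL hemispheres, where Cd3e averaged 0.031 and 0.020 RPKM. Which cells carried Cd4 was not tested. No gene passed among 8 neuronal, 6 choroid plexus and 5 red blood cell genes. Red cell genes summed to 330 RPKM in Cort+/+ CL replicate 1 and to 87.4 to 257 RPKM elsewhere.

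The genotype comparison asked whether loss of cortistatin altered these genes. In CL hemispheres no member passed (limma, 0 of 9 at an unadjusted p under 0.05 and 0 with limma voom), where 0.0152% of all genes were called, 0.00217% were called higher and 1.94% were higher at an unadjusted p under 0.05. Lgals1, for example, stood at 11.2 ± 0.739 RPKM in Cort+/+ CL hemispheres (SD over 3 libraries) and at 10.6 ± 1.24 RPKM in those of Cort-/- mice (SD over 3 libraries). Non-overlap with Cort-/- above Cort+/+ was found for 3.9% of all genes in CL hemispheres. In MCAO hemispheres all 9 had a higher fitted level in Cort-/- mice, yet none passed (limma, 0 of 9 at an unadjusted p under 0.05, 0 with limma voom). Of all genes 0.0174% were called, 0.00434% were called higher and 1.54% were higher at an unadjusted p under 0.05. No member had every Cort-/- MCAO library above every Cort+/+ MCAO library, against 0.861% of all genes. The largest log2 differences were 0.95 for Arg1 (SE 0.62), 0.92 for Ly6c2 (SE 0.47, unadjusted p = 0.0720) and 0.69 for Msr1 (SE 0.59), each with an adjusted p of 1.

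Of these 9 directions, 4 rested on a single library. Without Cort+/+ MCAO replicate 4, the lowest of its group for all 9 genes, the difference turned to -0.06 for Msr1, -0.21 for Cd5l, -0.04 for Cd68 and -0.11 for Chil3. It shrank to 0.27 for Lgals3, 0.18 for Lgals1, 0.04 for Cd36, 0.56 for Arg1 and 0.48 for Ly6c2. Without that library, 5 members (Lgals3, Lgals1, Msr1, Cd5l and Cd68) passed between the hemispheres of Cort+/+ mice, where none had passed with it, and the share of all genes called there was 0.345% in place of 0.0108%.

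**Figure D5:**
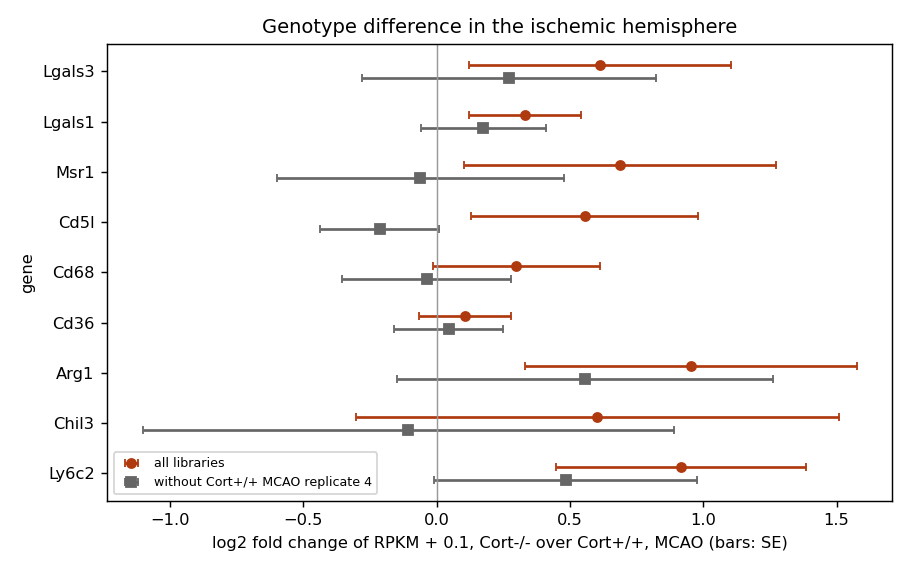
Log2 fold change of RPKM + 0.1 between Cort-/- and Cort+/+ MCAO hemispheres (x axis) for the 9 genes (y axis), with SE bars, from all libraries (circles) and without Cort+/+ MCAO replicate 4 (squares). All 9 circles lie above 0, and the squares of Msr1, Cd5l, Cd68 and Chil3 lie below it.

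The interaction of genotype and hemisphere tests whether the response to MCAO differed between genotypes. No member passed (limma, 0 of 9 at an unadjusted p under 0.05, 0 with limma voom), where 0.00217% of all genes were called and 1.5% were higher in Cort-/- mice at an unadjusted p under 0.05. Relative to its SE the difference in response was largest for Lgals1, at 0.42 (SE 0.31). With 3 to 5 libraries a group, differences of this size were within the spread between libraries.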

How the data were processed

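Libraries of 14 hemispheres were prepared by the authors from RNA of Cort+/+ and Cort-/- mice with a stranded mRNA kit and sequenced as 100 bp paired ends. Per the methods, reads were aligned to GRCm39 and counted on GENCODE genes with reanalyzerGSE. Replicates were biologically independent, and only clearly grouped replicates were kept in variable comparisons. The methods state 5 MCAO replicates, whereas the Cort+/+ MCAO libraries here are numbered 2, 3 and 4 only. How these were chosen is not given, and what the missing numbers would change in the Cort+/+ and genotype results was not tested. The authors deposited RPKM values without pooling replicates. The gene lengths and library sizes behind RPKM are not given in the sources used here, and the study's own tests ran on counts.

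Whole reads were recovered from the steps of RPKM (100% of 495656 values above 0, within 0.001 reads). Genes above 0 in at least 2 libraries (46102) were fitted as log2(RPKM + 0.1) with limma 3.58.1 in R 4.3.3, in 1 model of 4 groups with a variance trend, and called at a Benjamini-Hochberg adjusted p under 0.05. All 9 members passed this filter. Fold changes on this scale understate those of low genes. Replicate pairs of a group differed by 5.82 to 26.3 times the sampling noise, so none was a copy. Intervals and floors (95%, 3 counts) cover counting error only.

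The 9 members and 18 gene lists were chosen with earlier results of these data known. Genes named besides the members are those of each list that averaged 1 RPKM or more and had the largest or smallest mean change (up to 4), members of counts of 5 or fewer chosen after their values were seen, relatives of the members, and the 3 genes with the highest Pearson r. The list genes Fcrls, Lgals6 and Il10 were not matched in the table, and Chil1 was matched as Chi3l1. Promoters were matched by symbol and transcripts came from GENCODE M39. Other pseudocounts, filters, scalings, weights, limma voom, a replicate block and fits without each library were run as alternatives, and a fit without Cort+/+ CL replicate 1 and Cort-/- CL replicate 2 was added after seeing the data. The steps were tested on simulated data.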

Additional observations from a re-analysis of the deposited data

How the results depend on the processing

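Over both genotypes the count of 6 members stayed at 6 in every alternative run, each library left out in turn included, with the exceptions that follow. It was 4 among genes averaging 0.5 RPKM or more (12.5% of those called in either direction), where Cd5l and Cd36 were not tested. With a replicate block it was 0 (0% of all genes). In Cort-/- mice the count of 5 became 2 with only the groups compared (0.187% of all genes called) and 0 with a replicate block (0%). With 1 library left out it was lowest at 3 (without CL replicate 1 or 3, 0.282% and 0.312% of all genes). It was highest at 6 without MCAO replicate 3 (2.56%). In Cort+/+ mice the count of 0 became 2 with a pseudocount of 0.01 RPKM (0.0477% of all genes called). It was 2 among genes averaging 0.5 RPKM or more (0.16% of those) and 3 with limma voom (0.124%). Without both CL libraries nearest to MCAO it was 1 (0.0954%). With 1 library left out it ranged from 0 to 5, with 5 without Cort+/+ MCAO replicate 4 (0.345%). It was 1 without Cort-/- CL replicate 2 (0.0239%) or Cort-/- MCAO replicate 3 (0.0586%). The counts of 0 between genotypes and for the interaction were 0 in every alternative. The cause was not tested. Libraries with the same replicate number did not deviate together as a set (correlations of -0.24 to 0.32). Some differently numbered pairs were more alike, with 0.38 for Cort-/- CL replicate 2 with MCAO replicate 4. For Cort-/- CL replicate 3 with MCAO replicate 5 it was 0.40. Whether hemispheres came from the same animals under other numbers is therefore not known, and the other fits treat all libraries as independent. The block by replicate number removes degrees of freedom without a known pairing. It moved the genotype difference of Cd36 after MCAO to -0.014. With 1 library left out, the Cort+/+ change ranged from -0.16 to 0.63 for Arg1 and from -0.20 to 0.79 for Ly6c2, and the genotype difference after MCAO from -0.062 to 1.24 for Msr1, -0.21 to 1.02 for Cd5l, -0.037 to 0.51 for Cd68 and -0.11 to 1.59 for Chil3. Against the pan-myeloid genes, a pseudocount of 1 RPKM turned Cd5l to -0.23 in Cort+/+ and -0.29 in Cort-/- mice and Chil3 to -0.059 in Cort+/+ mice, and lowered Msr1 to 0.18 and 0.41, Lgals3 to 1.27 and 1.53 (Cort+/+ first) and Chil3 in Cort-/- mice to 0.022. Of the log2 fold changes of single members recomputed, 891 kept direction and side of the threshold, 18 gained a call, 19 lost it and 8 changed sign. Arg1, Cd5l and Ly6c2 had at most 79 reads in any library, which limits their precision.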
